A study of Mus musculus with 18 samples.

Results

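The genes described here encode the nuclear subunits of the mitochondrial respiratory chain and ATP synthase, together with assembly factors of complex I that carry the same name stems. They were chosen by gene symbol alone, as every symbol that starts with Ndufa, Ndufb, Ndufc, Ndufs, Ndufv, Uqcr, Cox4 to Cox8 or Atp5, or that is one of Sdha, Sdhb, Sdhc and Sdhd. The rule found 93 of the 24505 genes in the deposited expression tables, and used no measured value. By their known roles, 36 are subunits of complex I, 9 are complex I assembly factors, 4 are subunits of complex II, 8 of complex III, 20 of complex IV and 16 of complex V. Of the 20 complex IV genes, 8 are tissue-restricted or condition-dependent isoforms of a widely expressed subunit.

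RNA-seq was performed on E14Tg2a mouse embryonic stem cells with or without a functional copy of Daxx, which encodes a chaperone of the histone variant H3.3. There were 3 replicates in each of 6 groups: Daxx-null and wild-type cells in 2i medium with vitamin C at 100 µg per mL, Daxx-null and wild-type cells treated with retinoic acid (RA), and Daxx-null and wild-type cells in serum with LIF at 1000 units per mL. LIF at 1000 units per mL is also listed for the RA cultures, which were kept without LIF for 24 h and then given RA at 10 µM for 4 days. All groups come from the same parental line, and no source used here gives the part of Daxx that was deleted or the number of clones.

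Oxidative phosphorylation couples the transfer of electrons from NADH and succinate to oxygen with the synthesis of ATP. Complex I oxidises NADH, complex II (succinate dehydrogenase) oxidises succinate and is shared with the TCA cycle, complex III passes electrons to cytochrome c, complex IV (cytochrome c oxidase) reduces oxygen, and complex V makes ATP from the proton gradient. Mouse embryonic stem cells are known to rely both on glycolysis and on respiration, and the balance moves with the pluripotent state and with differentiation.

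Promoters are shown for 3 alternative isoforms of complex IV described in the results, each beside that of its widely expressed counterpart. RefSeq promoters (GRCm38.p6, 250 bases before to 50 after each start) matched 77 of the 93 members. Both strands were searched for GCGC followed by any 2 bases and GCGC, the core of the binding motif of NRF1, a regulator of respiratory genes, and for CCGGAAG, a motif of ETS factors such as GABPA. Where a gene had several promoters, the highest count among them was taken. The NRF1 letters occurred in 21 of the 77 members (27.3%), against 7.0% of all 27025 genes with a promoter. The ETS letters occurred in 18 members (23.4%), against 9.9% of all genes. The median number of CpG dinucleotides per gene, counted in this way, was 20 in the members and 8 in all genes. Of the 8 alternative-isoform genes of complex IV, 4 had a promoter in the table, and neither motif occurred in these 4. Of the 10 widely expressed complex IV genes with a promoter, 1 held the NRF1 letters, 3 held the ETS letters and 7 held neither, so the absence of both did not set the isoforms apart. CpG counts were 2 to 10 in the isoforms and 5 to 35 in the widely expressed genes. In the lines that follow, capitals mark letters that match either motif. Cox7b2 (chr5:71548156-71548455 on the minus strand) held 10 CpG and Cox7b (chrX:106015450-106015749 on the plus strand) 5, with no match in either. Cox6b2 (chr7:4753045-4753344 on the minus strand) held no match and 10 CpG, and Cox6b1 (chr7:30626065-30626364 on the minus strand) held 1 ETS match and 17 CpG. Cox7a1 (chr7:30183921-30184220 on the plus strand) held 7 CpG and Cox7a2 (chr9:79759804-79760103 on the minus strand) 20, with no match in either. A match describes the letters and does not show binding.
Cox7b2: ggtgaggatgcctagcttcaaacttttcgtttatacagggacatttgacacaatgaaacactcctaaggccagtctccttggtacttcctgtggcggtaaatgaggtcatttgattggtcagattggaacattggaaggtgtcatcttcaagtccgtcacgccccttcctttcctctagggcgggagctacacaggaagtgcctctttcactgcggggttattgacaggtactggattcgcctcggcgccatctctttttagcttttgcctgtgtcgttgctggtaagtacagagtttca
Cox7b: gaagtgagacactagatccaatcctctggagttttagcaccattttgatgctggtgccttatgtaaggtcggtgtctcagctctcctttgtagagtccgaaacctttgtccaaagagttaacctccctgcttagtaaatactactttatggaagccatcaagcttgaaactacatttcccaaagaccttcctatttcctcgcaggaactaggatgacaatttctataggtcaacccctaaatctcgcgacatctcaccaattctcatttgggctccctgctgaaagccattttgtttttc
Cox6b2: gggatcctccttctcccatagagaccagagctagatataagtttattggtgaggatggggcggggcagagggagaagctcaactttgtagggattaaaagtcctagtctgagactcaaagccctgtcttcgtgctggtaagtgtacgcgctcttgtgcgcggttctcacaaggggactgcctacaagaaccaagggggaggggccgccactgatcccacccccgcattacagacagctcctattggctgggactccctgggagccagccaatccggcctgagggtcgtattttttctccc
Cox6b1: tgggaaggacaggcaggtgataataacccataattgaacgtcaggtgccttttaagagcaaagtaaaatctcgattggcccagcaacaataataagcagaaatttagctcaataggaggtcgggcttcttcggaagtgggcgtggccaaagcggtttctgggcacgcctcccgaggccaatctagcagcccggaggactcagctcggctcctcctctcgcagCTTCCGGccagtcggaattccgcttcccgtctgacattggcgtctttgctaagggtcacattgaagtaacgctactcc
Cox7a1: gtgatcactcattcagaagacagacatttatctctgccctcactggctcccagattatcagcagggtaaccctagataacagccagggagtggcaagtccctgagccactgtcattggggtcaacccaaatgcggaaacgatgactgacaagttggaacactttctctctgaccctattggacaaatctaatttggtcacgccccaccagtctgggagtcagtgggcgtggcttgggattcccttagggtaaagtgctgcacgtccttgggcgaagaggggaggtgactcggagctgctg
Cox7a2: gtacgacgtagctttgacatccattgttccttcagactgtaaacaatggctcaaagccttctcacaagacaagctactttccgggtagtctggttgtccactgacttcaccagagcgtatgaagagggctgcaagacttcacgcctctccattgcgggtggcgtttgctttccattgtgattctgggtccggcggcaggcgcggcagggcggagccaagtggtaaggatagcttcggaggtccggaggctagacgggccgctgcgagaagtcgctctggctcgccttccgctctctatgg

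Expression was given as FPKM, fragments scaled to the exon length and to the size of the library, on a scale that the values place at about 10 times the conventional one, so levels here compare genes and libraries within these tables only. Genes were tested where 3 or more libraries reached an FPKM of 1, which 18002 genes did. Of the 93 members 92 passed, the exception being Cox8b, an isoform of heart and skeletal muscle that was at 0 to 1.68 FPKM in the 18 libraries. The median member averaged 141 FPKM over the groups, against 43.5 FPKM for the median gene tested, and 67 of the 92 lay above that median gene.

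Levels within a complex were far from equal, although its subunits are assembled in fixed numbers. In wild-type serum cells the complex I genes ran from 5.50 FPKM (Ndufs5) to 680.2 FPKM (Ndufb10), with a median of 209. Those of complex III ran from 17.1 FPKM (Uqcr11) to 936 FPKM (Uqcrfs1, the Rieske iron-sulfur protein), and those of complex V from 10.7 FPKM (Atp5k) to 4169 FPKM (Atp5b, the catalytic beta subunit). The 12 widely expressed complex IV genes ran from 32.5 FPKM (Cox6c) to 3864 FPKM (Cox4i1). Complex II had the narrowest span, from 397 FPKM for Sdhb to 1183 FPKM for Sdhc.

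Part of this spread ran with sequence that is present elsewhere in the genome. Outside the alternative isoforms, 12 of 85 members had another annotated transcript at least 95% identical over at least 50% of their length, as processed pseudogenes often are. Their median level was 26.8 FPKM and 10 of them were under 50 FPKM, whereas the 73 members with no such copy had a median of 223 FPKM and 12 were under 50 FPKM. Atp5l, a membrane subunit of ATP synthase, had 9 copies, and its group means ran from 8.85 FPKM in Daxx-null RA cells to 23.4 FPKM in Daxx-null serum cells. No source used here says how reads shared between copies were counted. The levels of Ndufs3, Ndufs5, Ndufa12, Ndufb11, Uqcrb, Cox7c, Atp5g1, Atp5g2, Atp5h, Atp5k, Atp5l and Atp5o, and changes in them, are therefore uncertain. Some of the other 73 also held near-identical stretches below that limit. Over all copies together these covered 52.6% of Atp5f1, 45.9% of Cox6c, 45.7% of Ndufs6, 45.1% of Cox5b, 42.6% of Uqcr10 and 40.2% of Ndufb4. The part of read sharing in the levels was not tested.

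**Figure D1:**
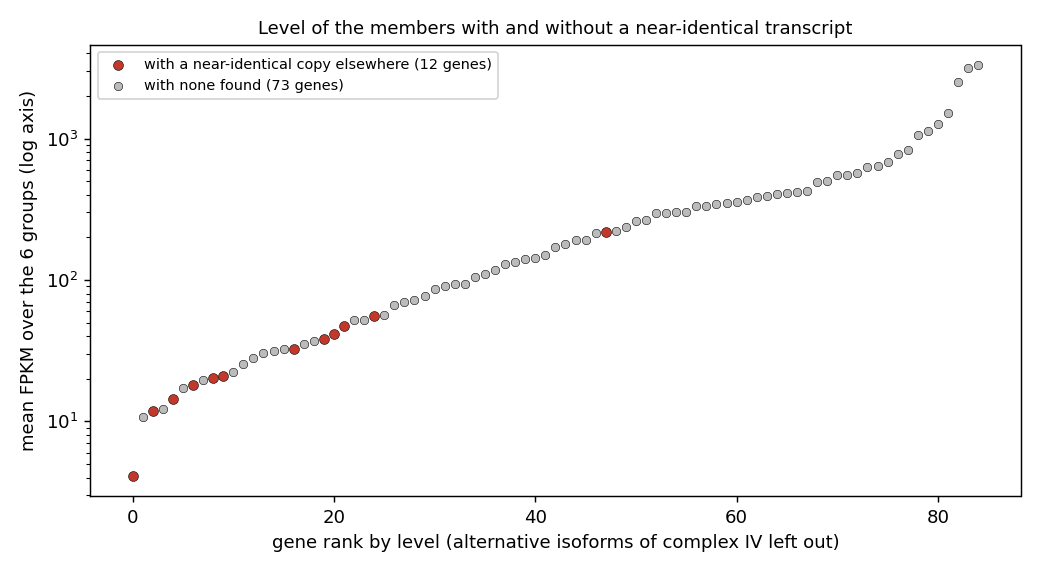
Mean FPKM over the 6 groups (log axis) of the 85 members outside the alternative isoforms, ranked by level. Red points have another transcript near-identical over at least 50% of their length, and grey points have none at that limit. 10 of the 12 red points lie under 50 FPKM, against 12 of the 73 grey points.

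Daxx was at 54.4 to 73.7 FPKM in the 9 Daxx-null libraries and at 238 to 434 FPKM in the 9 wild-type libraries. Depth, read from the steps of the values, was 84200000 to 141720000 counted units per library, so counting error was small except for genes of a few FPKM. Of 10 pluripotency markers all 10 were lower in wild-type RA cells than in wild-type serum cells, and 14 of 16 RA and neural markers, 12 of 12 endoderm markers and 11 of 13 fibroblast markers were higher. The summed endoderm markers were 477 to 1385 FPKM in Daxx-null 2i libraries and 117 to 303 FPKM in wild-type 2i libraries. Of 10 pluripotency markers 6 were lower and none higher in Daxx-null than in wild-type 2i cells, with sums of 10550 to 20730 FPKM in Daxx-null 2i libraries and 24360 to 26640 FPKM in wild-type 2i libraries. The pluripotency gene Pou5f1 was at 5198, 1918 and 4250 FPKM in Daxx-null 2i libraries and at 7000, 7296 and 8347 FPKM in wild-type 2i libraries. Daxx-null replicate 2 stood apart within its group. Wild-type replicate 3 stood apart toward serum in some genes, such as Ndufa4l2 and Bnip3, and away from serum in others, such as Cox7a1 and Ndufs8. The values of these genes follow with the 2i results. Counts of calls are given with and without those libraries, as are the calls in 2i between genotypes that were lost without them. The part of these markers in the results was not tested.

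RA culture was accompanied by lower levels of members in every complex. Of the 92 members tested in wild-type cells, 59 fell in RA relative to serum (64.1%) and 2 rose, where among all genes tested 34.1% fell and 30.4% rose (64.5% called in either direction). The median log2 fold change was -0.50 over the members and -0.05 over all genes. By class, 21 of 36 complex I genes fell, as did 5 of 9 complex I assembly factors, 4 of 4 complex II genes, 6 of 8 complex III genes, 13 of 19 complex IV genes and 10 of 16 complex V genes. Without the 2 libraries that stood apart, 68 members fell and 2 rose, and 42 of the 61 calls were kept under every alternative tried. Calls lost with quantile normalization included those of Sdha and Sdhd in complex II, Uqcrfs1 and Uqcrc2 in complex III and Atp5d in complex V. In bulk RNA, fewer cells of a type and less RNA per cell cannot be told apart.

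The summed level of each class was lower in RA than in serum in both genotypes. Complex I summed to 5538, 5684 and 6471 FPKM in Daxx-null RA libraries and to 8818, 7989 and 7709 FPKM in Daxx-null serum libraries, so that RA was at 72.2% of serum. In wild-type cells the complex I sums were 5301, 5578 and 5899 FPKM in RA and 8041, 8137 and 8099 FPKM in serum, or 69.1%. In wild-type cells the sum in RA was 69.7% of that in serum for the complex I assembly factors, 73.1% for complex II, 63.6% for complex III, 61.9% for widely expressed complex IV genes and 60.0% for complex V. The Daxx-null figures were 76.3%, 71.2%, 66.6%, 63.2% and 61.5% in the same order. For each class no RA library reached the lowest serum library of its own genotype.

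**Figure D2:**
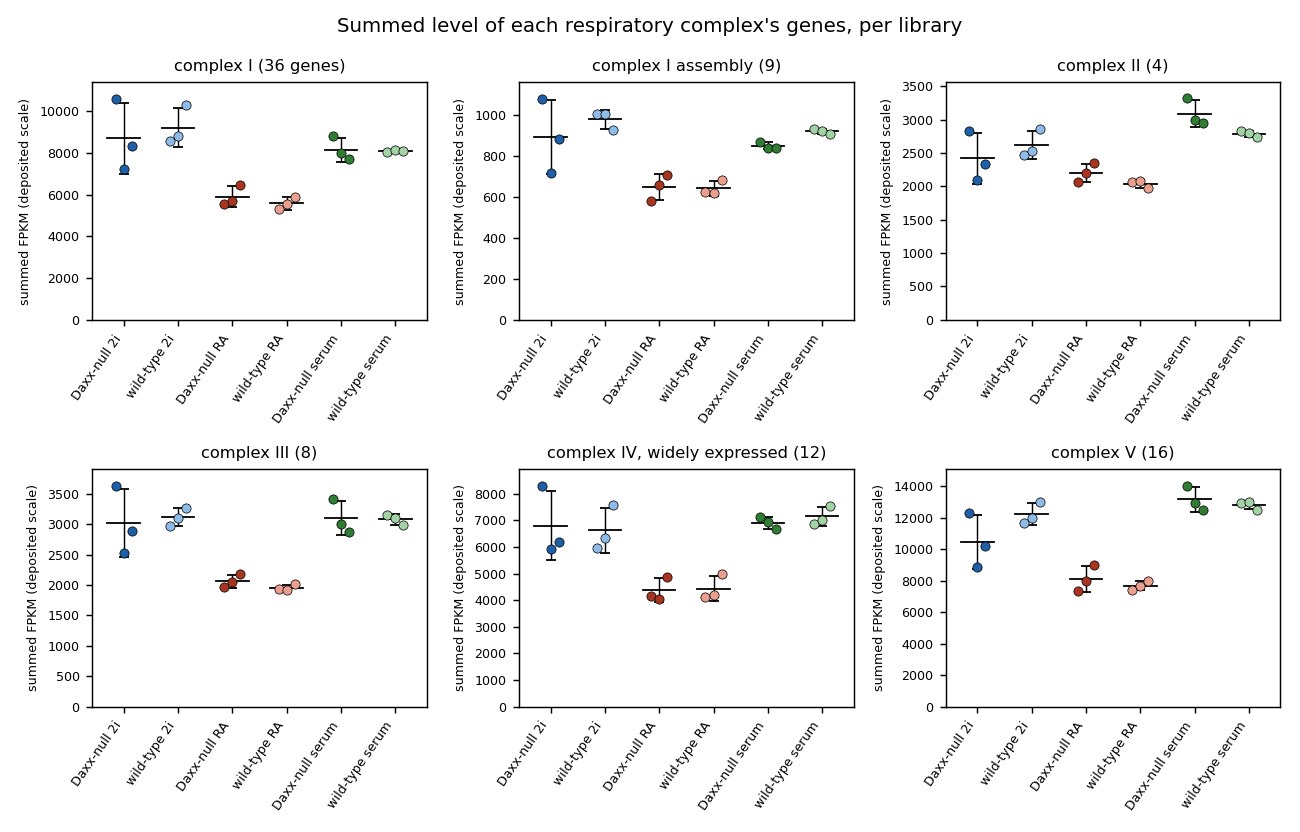
Summed FPKM per library (points) of the genes of each complex in the 6 groups, with the mean (line) and SD (bars, n = 3); complex IV is shown without its alternative isoforms. The RA libraries of both genotypes lie below the serum libraries in each panel, and the Daxx-null 2i libraries spread most, from 7220 to 10590 FPKM for complex I.

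Several of the most abundant members were among those that fell in RA. Atp5b had 2156, 1969 and 2257 FPKM in Daxx-null RA cells, 1746, 1781 and 1940 FPKM in wild-type RA cells, 4283, 3947 and 3828 FPKM in Daxx-null serum cells and 4115, 4247 and 4146 FPKM in wild-type serum cells. The RA and serum libraries were far apart in both genotypes, and the wild-type log2 fold change was -1.20 ± 0.10 (SE, adjusted p = 3.65e-08, limma). All 5 genes of the F1 part of complex V fell, from -1.20 for Atp5b to -0.39 for Atp5d, the delta subunit. The call for Atp5d was lost with quantile normalization and with median-ratio scaling. Atp5a1, the alpha subunit, named after its value was seen, was at -0.78 ± 0.08 (adjusted p = 6.73e-07). Cox4i1, the most abundant complex IV gene, had 2125, 2190 and 2677 FPKM in Daxx-null RA cells, 2295, 2330 and 2777 FPKM in wild-type RA cells, 4068, 4043 and 4018 FPKM in Daxx-null serum cells and 3636, 3832 and 4125 FPKM in wild-type serum cells. Its wild-type log2 fold change was -0.65 ± 0.13 (SE, adjusted p = 2.90e-04), with no overlap between RA and serum libraries.

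Among the other widely expressed complex IV genes, Cox8a (-1.48 ± 0.30, adjusted p = 3.82e-04) and Cox5a (-1.31 ± 0.20, adjusted p = 3.08e-05) fell most in wild-type RA cells. Cox5a, named after its values were seen, had 107, 79.2 and 98.7 FPKM in wild-type RA libraries against 217, 259 and 228 FPKM in wild-type serum libraries. Ndufa4, now placed in complex IV, had 48.6, 43.6 and 60.3 FPKM in RA and 52.3, 61.3 and 59.2 FPKM in serum, which overlapped, and did not pass the test (-0.19 ± 0.29, adjusted p = 0.594). Cox6b1 had a log2 fold change of -0.37 ± 0.17 that missed the threshold (adjusted p = 0.0668).

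In complex I the accessory subunits Ndufv3 (-1.55 ± 0.31, adjusted p = 3.33e-04) and Ndufb4 (-1.37 ± 0.35, adjusted p = 0.00274) had the lowest log2 fold changes in RA. Ndufv3 had 143, 190 and 216 FPKM in wild-type RA libraries and 512, 516 and 563 FPKM in wild-type serum libraries. Of the 7 core subunits 4 fell. Both members that rose are complex I accessory genes. Ndufab1, the mitochondrial acyl carrier protein, had 38.9, 32.2 and 40.9 FPKM in wild-type RA cells and 25.3, 21.3 and 18.8 FPKM in wild-type serum cells, and rose by 0.77 ± 0.15 (adjusted p = 3.46e-04). Ndufb11 rose by 0.30 ± 0.11 (adjusted p = 0.0217). Its entry overlaps Rbm10 and has a near-identical copy, and without strand the reads of overlapping genes cannot be told apart.

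Of the complex I assembly factors, Ndufaf6 had the lowest log2 fold change, with 29.98, 31.2 and 32.1 FPKM in wild-type RA libraries and 74.8, 67.7 and 68.6 FPKM in wild-type serum libraries (-1.16 ± 0.10, adjusted p = 7.63e-08). In complex II, Sdhb had 285, 268 and 286 FPKM in wild-type RA cells and 387, 393 and 410.1 FPKM in wild-type serum cells (-0.51 ± 0.09, adjusted p = 1.85e-04). Sdhc was at -0.49 ± 0.11, Sdhd at -0.44 ± 0.14 and Sdha at -0.35 ± 0.08, all called. The calls for Sdhd and Sdha were lost with quantile normalization and with the authors' normalized table. Over the alternatives their adjusted p (limma) reached 0.138 and 0.133. In complex III the small subunits Uqcr10 (-1.23 ± 0.19, adjusted p = 2.89e-05) and Uqcrq (-1.11 ± 0.19, adjusted p = 8.74e-05) had the lowest log2 fold changes. The called subunits nearest 0 were Uqcrfs1 (-0.35 ± 0.10) and Uqcrc2 (-0.31 ± 0.07), whose calls were lost with quantile normalization and with the authors' normalized table. The core protein Uqcrc1, named after its values were seen, had 424, 415 and 415 FPKM in RA against 816, 816 and 774 FPKM in serum (-0.94 ± 0.10, adjusted p = 3.95e-07).

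Of the 3 genes that encode the identical subunit c of the ATP synthase rotor, Atp5g3 was the most abundant in each group. It had 1172, 1264 and 1268 FPKM in wild-type RA cells and 1446, 1447 and 1340 FPKM in wild-type serum cells, and its change did not pass the test (-0.19 ± 0.17, adjusted p = 0.324). Atp5g1 had 25.2, 25.1 and 31.3 FPKM in wild-type RA cells against 64.7, 61.4 and 42.3 FPKM in wild-type serum cells (-1.01 ± 0.19, adjusted p = 1.99e-04). Atp5g2 was at -0.47 ± 0.21 (adjusted p = 0.0530). Atp5g1 and Atp5g2 each have a near-identical copy elsewhere.

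**Figure D3:**
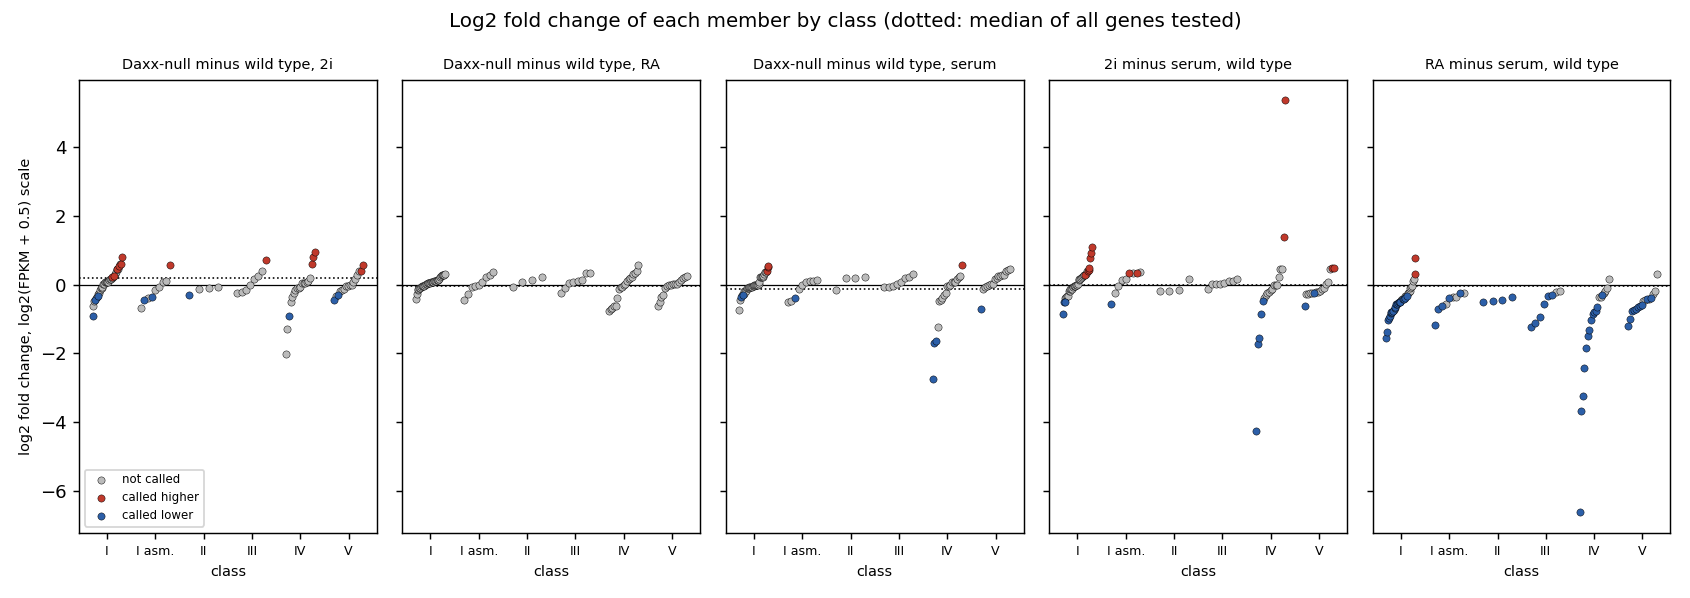
Log2 fold change on the log2(FPKM + 0.5) scale of each member tested, by class (I asm., complex I assembly factors), in 5 comparisons; red and blue points passed an adjusted p of 0.05 and the dotted line is the median of all genes tested. In RA against serum 59 of 92 points are blue, whereas none is coloured for Daxx-null against wild type in RA.

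Lists of neighbouring processes held more genes that fell than rose in wild-type RA cells. Of all genes tested 34.1% fell and 30.4% rose, with a median log2 fold change of -0.05. Of 17 TCA cycle genes 12 fell and none rose, with a median log2 fold change of -0.44 and Idh3a, a subunit of NAD-dependent isocitrate dehydrogenase, lowest at -1.59 ± 0.09. Of 78 mitochondrial ribosomal protein genes 49 fell and 2 rose (median -0.41). Of 21 regulators of mitochondrial biogenesis 11 fell and 3 rose (median -0.43). The lowest was Esrrb at -8.23 ± 0.29, which is also a pluripotency factor. Of 43 assembly factors outside the rule 18 fell and 6 rose, with the copper chaperone Cox17 lowest at -1.75 ± 0.32. Their median of -0.19 was the nearest to 0 of these lists. Of 3 genes for cytochrome c and cytochrome c1 2 fell (median -0.69).

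The 5 members with the largest absolute log2 fold changes between wild-type cultures were alternative isoforms of complex IV, in RA and again in 2i. In wild-type cells 6 of the 7 tested fell in RA relative to serum, with a median log2 fold change of -2.41, and none rose. Ndufa4l2, a paralogue of Ndufa4 known as a target of the hypoxia-inducible factor HIF-1, had 2.54, 2.79 and 6.63 FPKM in Daxx-null RA cells and 2.97, 3.32 and 1.13 FPKM in wild-type RA cells. It had 43.4, 42.6 and 35.1 FPKM in Daxx-null serum cells and 251, 243 and 319 FPKM in wild-type serum cells. Wild-type serum libraries were above all others and the RA libraries of the genotypes overlapped. The log2 fold change in wild-type RA was -6.60 ± 0.85 (SE, adjusted p = 5.05e-06). Ndufa4l2 lies at chr10:126951995-126954210 (mm9, plus strand) and overlaps the entry for Shmt2, whose reads cannot be told apart from it without strand.

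Cox7a1, the isoform of heart and skeletal muscle, had 2.17, 3.29 and 2.80 FPKM in Daxx-null RA cells and 3.34, 4.51 and 6.90 FPKM in wild-type RA cells, against 50.1, 34.1 and 35.7 FPKM in Daxx-null serum cells and 47.2, 45.8 and 54.2 FPKM in wild-type serum cells. RA and serum did not overlap, and the wild-type log2 fold change was -3.24 ± 0.30 (adjusted p = 1.32e-07). Cox8c, a testis isoform, was at 0 in all 3 Daxx-null RA libraries and at 0.18 to 0.35 FPKM in wild-type RA libraries, against 5.48 to 12.7 FPKM in wild-type serum libraries, and fell by 3.67 ± 0.50 on the log2 scale (adjusted p = 8.32e-06), a value that depends on the pseudocount. Cox4i2, an isoform of lung that low oxygen induces, had 5.61, 5.49 and 5.75 FPKM in wild-type RA cells and 24.6, 15.8 and 25.1 FPKM in wild-type serum cells (-1.84 ± 0.53, adjusted p = 0.00653). Cox6a2, a muscle isoform whose entry overlaps Itgad, was at most 0.66 FPKM in RA and at 2.36 to 3.67 FPKM in wild-type serum cells. Of 12 muscle and heart markers 7 fell and 1 rose in the same comparison, and their summed level was 68.7 to 78.1 FPKM in wild-type RA and 120.2 to 127 FPKM in wild-type serum libraries. Their part in these results was not tested.

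In wild-type 2i cells, most members were not called against serum, and the largest differences were again in the isoforms. Of 92 members tested in wild-type cells 13 rose and 11 fell in 2i relative to serum, that is 26.1% called, where 49.5% of all genes were called (24.7% higher and 24.8% lower). The median log2 fold change was -0.01 over the members and -0.02 over all genes. None of 4 complex II genes and none of 8 complex III genes was called by limma. At an unadjusted p of 0.05, 1 of 4 and 0 of 8 passed, where 9987 of all 18002 genes tested did. Without the 2 libraries that stood apart, 11 rose and 16 fell. Of the 24 calls 9 were kept under every alternative, among them Cox7b2, Cox7a1, Ndufa4l2, Ndufs8, Ndufb7 and Cox7a2l. In Daxx-null cells 2i was not tested against serum. There the sum in 2i was 78.3% of that in serum for complex II and 79.5% for complex V, with no overlap between libraries. The wild-type figures were 93.9% and 95.3%. The other classes were at 97.6% to 106.6% in Daxx-null cells.

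Cox7b2, a testis isoform of the small subunit Cox7b, was the member with the largest rise. It had 133, 63.5 and 96.1 FPKM in Daxx-null 2i cells and 83.7, 90.1 and 70.9 FPKM in wild-type 2i cells. It had 0 to 2.06 FPKM in Daxx-null RA cells, 0.32 to 2.31 FPKM in wild-type RA cells, 1.18 to 2.24 FPKM in Daxx-null serum cells and 0.40 to 3.09 FPKM in wild-type serum cells. Every 2i library was above every other library, and in wild-type cells Cox7b2 rose by 5.34 ± 0.59 on the log2 scale (SE, adjusted p = 2.24e-06). It lies at chr5:71834062-71939444 (mm9, minus strand), and no other entry overlaps it. The 18 genes tested within 2 Mb of it had a median of 0.14, with 10 above 0 and 8 below. Of the summed FPKM of Cox7b and Cox7b2, Cox7b2 made up 72.9% ± 6.72 in Daxx-null 2i cells and 71.0% ± 2.83 in wild-type 2i cells, against 3.20% ± 1.26 in Daxx-null serum cells and 3.56% ± 2.42 in serum cells of the wild type (SD, n = 3). Cox7b fell in wild-type 2i cells (-0.48 ± 0.14, adjusted p = 0.0108), with 31.5, 34.1 and 33.8 FPKM in 2i and 50.3, 49.8 and 40.03 FPKM in serum.

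Cox7a1 had 112, 102 and 190 FPKM in wild-type 2i cells against 47.2, 45.8 and 54.2 FPKM in wild-type serum cells and rose by 1.39 ± 0.30 (adjusted p = 0.00122). Its counterpart Cox7a2 had 107, 120.3 and 132 FPKM in wild-type 2i cells and 159, 152 and 133 FPKM in wild-type serum cells, and was not called. Ndufa4l2 had 6.87, 3.53 and 98.1 FPKM in wild-type 2i cells against 251, 243 and 319 FPKM in serum (-4.23 ± 0.85, adjusted p = 6.77e-04), and Cox4i2 had 4.23, 2.72 and 17.9 FPKM against 24.6, 15.8 and 25.1 FPKM (-1.74 ± 0.53, adjusted p = 0.0129). In both genes wild-type 2i replicate 3 was far above the other 2. Bnip3, a hypoxia-response gene outside the rule that was chosen after its values were seen, was likewise at 108 FPKM in that library and at 28.5 and 21.7 FPKM in the other 2. Without both libraries that stood apart the log2 fold changes were -5.63 for Ndufa4l2 and -2.49 for Cox4i2. Of 17 hypoxia-response genes 14 fell and none rose in wild-type 2i cells (median -2.10).

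Among complex I genes, Ndufs8 and Ndufb7 rose most in wild-type 2i cells. Ndufs8, an iron-sulfur core subunit, had 413, 401 and 562 FPKM in 2i and 208, 193 and 238 FPKM in serum (1.09 ± 0.13, adjusted p = 4.90e-06). Ndufb7 had 688, 715 and 902 FPKM in 2i and 386, 428 and 412 FPKM in serum (0.90 ± 0.14, adjusted p = 5.07e-05). Ndufv3 (-0.86 ± 0.31, adjusted p = 0.0292) and Ndufb3 (-0.51 ± 0.14, adjusted p = 0.00584) fell. The call for Ndufv3 was kept in 1 of 6 fits that left out a library. The call for Ndufb3 was lost with chromosome medians subtracted (limma, adjusted p = 0.0815). Cox7a2l, which joins complexes III and IV into supercomplexes and is named here after its values were seen, had 415, 431 and 346 FPKM in wild-type 2i cells against 754, 742 and 636 FPKM in wild-type serum cells (-0.84 ± 0.13, adjusted p = 4.55e-05). It lies on chromosome 17, and the 16 other genes tested within 2 Mb of it were all below 0, with a median of -0.72.

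**Figure D4:**
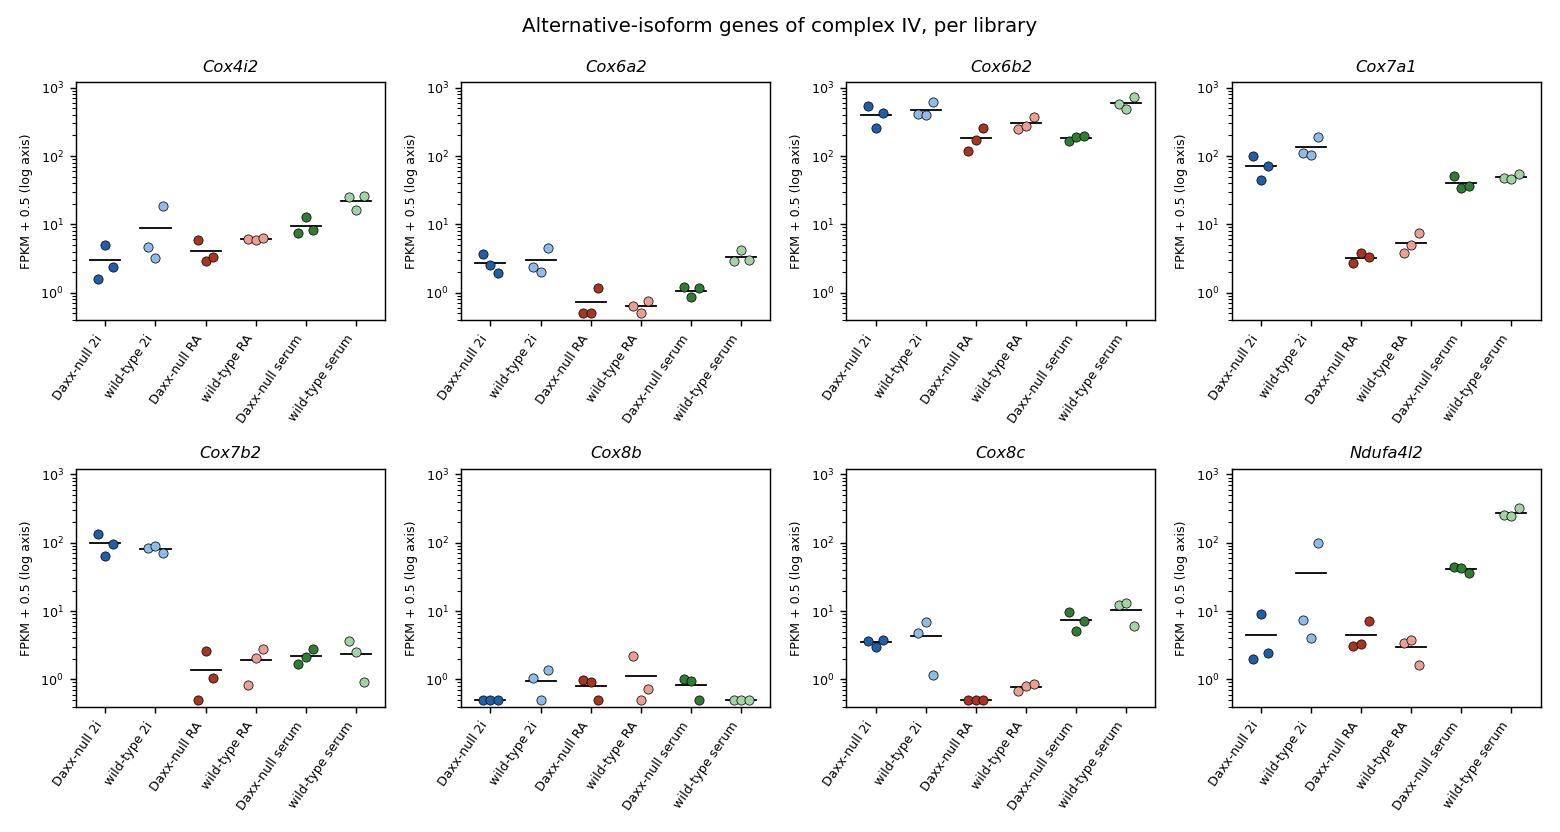
FPKM + 0.5 (log axis) of the 8 alternative-isoform genes of complex IV in each library (points) with the group mean (line), in the 6 groups. Cox7b2 is high in the 6 2i libraries alone, Ndufa4l2 is highest in wild-type serum, and Cox6b2 is lower in Daxx-null than in wild-type serum.

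In Daxx-null serum cells the members that moved furthest were isoforms of complex IV. Of 92 tested 4 rose and 7 fell relative to wild-type serum cells, where 28.2% of all genes were called (9.29% higher and 18.9% lower). The median log2 fold change was -0.01 over the members and -0.12 over all genes. The split depended on scaling: 6 rose and 3 fell with quantile normalization, and 6 and 4 with median-ratio scaling. Without the 2 libraries that stood apart, which also set the shared spread, 5 rose and 11 fell, and with only the serum groups fitted 8 rose and 16 fell. Summed FPKM of complex V was 14050, 12940 and 12530 in Daxx-null serum cells and 12930, 13030 and 12510 in wild-type serum cells, which overlapped. No gene of complexes II or III was called by limma. At an unadjusted p of 0.05, 1 of 4 and 0 of 8 passed, where 7075 of all 18002 genes tested passed.

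The 3 members with the lowest log2 fold changes were alternative isoforms of complex IV. Cox6b2, the testis isoform of Cox6b1, had 168, 189 and 193 FPKM in Daxx-null serum cells against 584, 495 and 741 FPKM in wild-type serum cells. The groups did not overlap, and Cox6b2 fell by 1.70 ± 0.28 on the log2 scale (SE, adjusted p = 4.54e-04), a call kept under every alternative. Its counterpart Cox6b1 had 257, 235 and 227 FPKM in Daxx-null serum cells and 243, 223 and 212 FPKM in wild-type serum cells (0.09 ± 0.17, adjusted p = 0.758). Cox6b2 thus made up 43.4% ± 3.39 of the Cox6b FPKM in Daxx-null serum cells and 72.4% ± 4.69 in wild-type serum cells (SD, n = 3). It made up 61.5% and 67.0% in Daxx-null and wild-type 2i cells, and 49.6% and 62.8% in Daxx-null and wild-type RA cells. Cox6b2 lies at chr7:4703394-4704504 (mm9, minus strand), and the 90 genes tested within 2 Mb had a median of -0.16.

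Ndufa4l2 was at 43.4, 42.6 and 35.1 FPKM in Daxx-null serum cells against 251, 243 and 319 FPKM in wild-type serum cells. Its groups were far apart, with a log2 fold change of -2.73 ± 0.85 (SE, adjusted p = 0.0257). The SE came from a spread shared with wild-type 2i cells, where replicate 3 was far above its group. The adjusted p was 6.91e-04 with only the serum groups fitted and 4.14e-05 without the 2 libraries that stood apart, but 0.0541 to 0.0773 when a serum library was left out of the fit of all groups, and 0.060 with no filter on low values. Ndufa4l2 made up 37.0% ± 2.02 of the summed FPKM of Ndufa4 and Ndufa4l2 in Daxx-null serum cells and 82.3% ± 2.28 in wild-type serum cells (SD, n = 3). Of 17 hypoxia-response genes, a list that holds no member, 14 fell and none rose in Daxx-null serum cells (median -1.46), with the vasodilator peptide gene Adm lowest at -3.02 ± 0.45. Their summed level was 5585 to 6492 FPKM in Daxx-null and 10050 to 10710 FPKM in wild-type serum libraries.

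Cox4i2 had 7.08, 12.3 and 7.79 FPKM in Daxx-null serum cells against 24.6, 15.8 and 25.1 FPKM in wild-type serum cells, which did not overlap, and missed the threshold (-1.23 ± 0.53, adjusted p = 0.0972). It passed without the 2 libraries that stood apart (adjusted p = 0.00434). Cox6a2 was at 0.70, 0.36 and 0.66 FPKM in Daxx-null and at 2.36, 3.67 and 2.47 FPKM in wild-type serum cells (-1.63 ± 0.38, adjusted p = 0.00486), and was lost with quantile normalization (adjusted p = 0.0872). Summed muscle and heart markers were 67.2 to 81.4 FPKM in Daxx-null and 120.2 to 127 FPKM in wild-type serum libraries, with 4 of 12 lower and none higher. Fibroblast markers were at 34.4 to 48.4 FPKM in Daxx-null and 92.9 to 135 FPKM in wild-type serum libraries (7 of 13 lower, none higher). Endoderm markers were at 179.7 to 216 FPKM in Daxx-null and 434 to 479 FPKM in wild-type serum libraries (6 of 12 lower, 1 higher). The part of these markers in the serum results was not tested.

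Outside the isoforms, Atp5s, a small protein first described as a coupling factor of ATP synthase, had 18.4, 20.6 and 23.2 FPKM in Daxx-null serum cells and 34.6, 35.7 and 31.2 FPKM in wild-type serum cells (-0.70 ± 0.15, adjusted p = 0.00317). The call for Atp5s was lost with quantile normalization and with the authors' normalized table, and over the alternatives its adjusted p (limma) reached 0.0678. Ndufaf6 (-0.38 ± 0.10, adjusted p = 0.0121), Ndufa6 (-0.37 ± 0.13, adjusted p = 0.0373) and Ndufs4 (-0.29 ± 0.10, adjusted p = 0.0353) also fell. These 3 calls were lost with chromosome medians subtracted (adjusted p = 0.0709, 0.296 and 0.231). They were also lost with quantile normalization, with median-ratio scaling and with the authors' normalized table. In the same order they were kept in 4, 2 and 1 of 6 fits that left out a serum library.

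All 4 members that rose in Daxx-null serum cells lie on chromosome 1. Ndufs1, the largest core subunit of complex I, had 455, 409 and 396 FPKM in Daxx-null serum cells against 309, 301 and 263 FPKM in wild-type serum cells (0.53 ± 0.09, adjusted p = 3.84e-04). Cox5b, a zinc-binding complex IV subunit, rose by 0.57 ± 0.19 (adjusted p = 0.0323), and Ndufa10, outside the naming rule and named after its value was seen, rose by 0.40 ± 0.09 (adjusted p = 0.00329). None of these 3 overlapped between genotypes. The median log2 fold change of all genes on chromosome 1 was 0.12 in serum, against -0.12 over the genome. Genes within 2 Mb had medians of 0.20 around Ndufs1 (17 of 28 above 0), 0.14 around Cox5b and 0.33 around Ndufa10, all below the values of these members, a difference that was not tested. With the median of each chromosome subtracted Ndufs1 was at 0.41 (adjusted p = 0.0139), whereas the calls for Cox5b (0.45, adjusted p = 0.0959) and Ndufa10 (0.28, adjusted p = 0.0686) were lost. Cox5b kept its call in 2 of 6 fits that left out a serum library.

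In 2i the Daxx comparison was less even between libraries. Of 92 members 13 rose and 9 fell in Daxx-null relative to wild-type 2i cells, or 23.9%, where 46.8% of all genes were called (31.5% higher and 15.3% lower). The median log2 fold change was -0.01 over the members and 0.20 over all genes. The split depended on the scaling and on the libraries: with median-ratio scaling 8 rose and 20 fell, with quantile normalization 9 rose and 11 fell, and without Daxx-null 2i replicate 1 7 rose and 28 fell. Without Daxx-null replicate 2 and wild-type replicate 3 of 2i, 16 rose and 4 fell. With only the 2i groups fitted, 5 rose and 1 fell. The complex I sums were 10590, 7220 and 8320 FPKM in Daxx-null 2i cells and 8566, 8829 and 10290 FPKM in wild-type 2i cells, which overlapped. Ndufv1, Ndufv2, Ndufaf7 and Cox7a2l were the 4 members whose calls were kept under every alternative.

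The 3 kept members that rose lie on chromosome 17 within regions where nearly every gene was higher. Cox7a2l had 901, 792 and 633 FPKM in Daxx-null 2i cells against 415, 431 and 346 FPKM in wild-type 2i cells (0.96 ± 0.13, adjusted p = 2.67e-05), and all 16 genes tested within 2 Mb were above 0 with a median of 0.94. Ndufv2, an iron-sulfur core subunit of complex I, had 292, 280 and 223 FPKM against 158, 162 and 135 FPKM (0.80 ± 0.13, adjusted p = 1.31e-04), and 16 of 17 genes around it were above 0 with a median of 0.92. Ndufaf7, a methyltransferase needed for complex I assembly, had 64.9, 65.1 and 57.6 FPKM against 45.9, 45.2 and 36.1 FPKM (0.56 ± 0.13, adjusted p = 0.00189), and 29 of 29 genes around it were above 0 with a median of 0.86. None of the 3 overlapped between genotypes. Over the whole of chromosome 17 the median was 0.13. In serum, Cox7a2l averaged 692 FPKM in Daxx-null and 711 FPKM in wild-type cells, and Ndufaf7 averaged 63.0 and 63.4 FPKM. Their wild-type 2i means (397 and 42.4 FPKM) lay below serum, and their Daxx-null 2i means (775 and 62.5 FPKM) lay nearer to it. Both genes were called lower in wild-type 2i than in wild-type serum cells. Ndufv2 averaged 200.5 and 174 FPKM in Daxx-null and wild-type serum cells, against 265 and 151.5 FPKM in 2i.

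Genes on chromosome 1 were higher too, with a median of 0.70 over all of them in 2i. Of its 6 members 5 rose. Ndufb3 had 121, 87.8 and 95.9 FPKM in Daxx-null 2i cells and 61.5, 66.8 and 69.6 FPKM in wild-type 2i cells (0.61 ± 0.14, adjusted p = 0.00218), where the 43 genes within 2 Mb had a median of 0.69. After the median of each chromosome was subtracted its value was -0.11. Cox5b (0.61 ± 0.19), Ndufa10 (0.24 ± 0.09) and Ndufs1 (0.22 ± 0.09) are named after their values were seen, and the genes around them had medians of 0.73, 0.69 and 0.28. The exception was Sdhc, with 1107, 896 and 876 FPKM in Daxx-null and 952, 986 and 1183 FPKM in wild-type 2i cells, which overlapped. With chromosome medians subtracted, 5 members rose and 23 fell. Chromosome copy number was not measured, and a change of copy number and a change of expression along a chromosome cannot be told apart here.

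**Figure D5:**
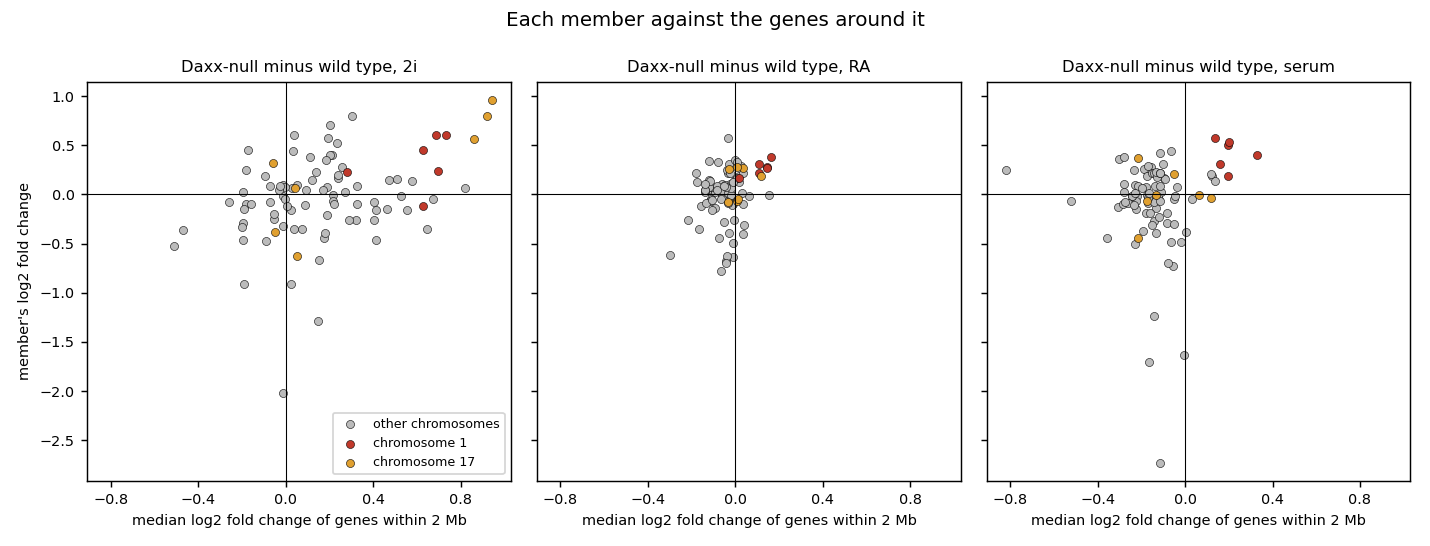
Log2 fold change of each member tested (y axis) against the median log2 fold change of the other genes tested within 2 Mb (x axis), for Daxx-null minus wild type in 2i, RA and serum; red points lie on chromosome 1 and orange points on chromosome 17. In 2i, Cox7a2l, Ndufv2 and Ndufaf7 lie at the upper right, near neighbour medians of 0.94, 0.92 and 0.86.

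Ndufv1, the subunit of complex I that binds NADH and flavin, was the kept member that fell. It had 424, 282 and 368 FPKM in Daxx-null 2i cells against 593, 605 and 819 FPKM in wild-type 2i cells, which did not overlap (-0.91 ± 0.17, adjusted p = 4.52e-04). Without the 2 libraries that stood apart its log2 fold change was -0.60. The 118 genes around it on chromosome 19 had a median of -0.19, as did the 114 genes around Ndufs8, which lies nearby and fell by 0.46 ± 0.13 (adjusted p = 0.00856). The call for Ndufs8 was lost without the 2 libraries (-0.29, adjusted p = 0.0849). Cox7a1 had 99.4, 44.8 and 72.1 FPKM in Daxx-null 2i cells and 112, 102 and 190 FPKM in wild-type 2i cells (-0.91 ± 0.30, adjusted p = 0.0212), which did not overlap. Its call rested on the 2 libraries that stood apart, the lowest Daxx-null and the highest wild-type one, and without them its log2 fold change was -0.33 (adjusted p = 0.363).

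The other members that rose in Daxx-null 2i cells were Cox6c (0.79 ± 0.21, adjusted p = 0.00528), Uqcrb (0.70 ± 0.21, adjusted p = 0.0112), Atp5o (0.57 ± 0.18, adjusted p = 0.0160), Ndufab1 (0.52 ± 0.15, adjusted p = 0.0102, named after its value was seen) and Atp5s (0.40 ± 0.15, adjusted p = 0.0423). The others that fell were Ndufaf5 (-0.46), Atp5g3 (-0.45), Ndufaf4 (-0.35), Ndufa9 (-0.33), Atp5b (-0.32) and Sdhb (-0.29), with adjusted p of 0.0151 to 0.0372. Each of these 11 calls was lost under at least 1 alternative. Those of Ndufab1, Ndufaf5, Atp5g3, Ndufa9, Atp5b and Sdhb were lost without the 2 libraries that stood apart (adjusted p of 0.0652 to 0.294), and 14 of the 22 calls in this comparison were kept. Atp5g3 had 1925, 1082 and 1470 FPKM in Daxx-null 2i cells and 1886, 2028 and 2025 FPKM in wild-type 2i cells, which overlapped. Daxx-null replicate 2, the library that stood apart, was its lowest.

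In RA no member was called between genotypes. Of 92 tested limma called none, where 2.49% of all genes were called (0.222% higher and 2.27% lower). At an unadjusted p of 0.05, 10 of the 92 members passed, as did 2257 of the 18002 genes tested. With only the RA groups fitted 1 member fell, and without the 2 2i libraries that stood apart 2 rose. Log2 fold changes ran from -0.78 to 0.58 with a median of 0.04, against -0.05 over all genes. Cox6b2 had 117, 170 and 256 FPKM in Daxx-null RA cells and 247, 277 and 375 FPKM in wild-type RA cells, which overlapped. All 6 members on chromosome 1 were above 0 with a median of 0.27, where all genes on that chromosome had a median of 0.11, and none was called.

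Whether the Daxx difference itself depended on culture was tested as an interaction, which reuses the same serum libraries. Between 2i and serum the Daxx-null minus wild-type difference was higher in 2i for 9 members and lower for 5, where 43.1% of all genes were called (31.5% higher and 11.5% lower), and Cox6b2 and Cox7a2l were called under every alternative. For Cox6b2 the Daxx-null minus wild-type log2 fold change was higher in 2i than in serum by 1.45 ± 0.40 (SE, adjusted p = 0.00879), and for Cox7a2l by 0.99 ± 0.18 (adjusted p = 4.48e-04). With median-ratio scaling 3 were higher and 18 lower, and with quantile normalization 4 and 7. Between RA and serum 1 member was called, where 8.19% of all genes were (4.82% higher and 3.38% lower), and Ndufaf6 was higher in RA than in serum by 0.73 ± 0.15 (adjusted p = 0.00616). Ndufaf6 had 42.8, 37.3 and 39.6 FPKM in Daxx-null RA cells and 29.98, 31.2 and 32.1 FPKM in wild-type RA cells. In serum, Ndufaf6 had 55.5, 57.3 and 49.2 FPKM in Daxx-null cells and 74.8, 67.7 and 68.6 FPKM in wild-type cells. The member with the highest value between RA and serum was Ndufa4l2 (3.30), which was not called. Without the 2 libraries of 2i that stood apart, its adjusted p (limma) was 5.36e-04.

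The related lists were called in the Daxx comparisons at shares that differed between cultures, as all genes were (46.8% in 2i, 2.49% in RA and 28.2% in serum). Of 17 TCA cycle genes 4 rose and 3 fell in Daxx-null 2i cells, 1 rose and none fell in RA, and none rose and 2 fell in serum. The gene that rose in RA, Fh1 for fumarate hydratase, was at 0.47 ± 0.11. Of 21 regulators of mitochondrial biogenesis 3 rose and 8 fell in 2i, none was called in RA, and 3 rose and 3 fell in serum, where Esrra, an orphan nuclear receptor of respiratory genes, was lowest at -0.80 ± 0.21. Of 43 assembly factors outside the rule 10 rose and 9 fell in 2i, with Cox16 highest at 0.91 ± 0.14, none was called in RA, and 5 rose and 5 fell in serum. Of 78 mitochondrial ribosomal protein genes 6 rose and 13 fell in 2i, none was called in RA, and 11 rose and none fell in serum. Of the 3 genes for cytochrome c and cytochrome c1, 2 fell in 2i and none was called in RA or serum.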

How the data were processed

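RNA was measured in 18 libraries, 3 per group. Exon FPKM values per gene were deposited by the authors. The tools named in the submitters' processing notes are HOMER 4.8, limma and Bowtie2 2.2.6; no source used here gives their order, the handling of shared reads or the strand. The labels name both an oligo-dT step and depletion of ribosomal RNA. The deposited log2 table of normalized values served only as an alternative. The scale of FPKM (about 10 times the usual) and the depth of 84200000 to 141720000 counted units were inferred from the steps of low values, not stated. Genes that reached an FPKM of 1 in 3 or more libraries were tested with limma 3.58.1 (R 4.3.3) on log2(FPKM + 0.5) with a mean-variance trend, 6 group means fitted over all 18 libraries, and Benjamini-Hochberg adjustment over 18002 genes; called means an adjusted p under 0.05. Such fold changes understate the change of low genes. Replicates are called independent in the labels, without saying whether they are separate cultures. No 2 libraries were identical. In wild-type 2i against serum, same-numbered libraries had correlations of 0.146 to 0.326 over 3 pairs, and other pairs had -0.266 to 0.172. These ranges overlap, come from the data and not from the labels, and do not settle whether samples were paired. The replicate block changed 13 and 11 calls to 12 and 11 there. Near-identical transcripts were found with BLAST 2.17.0 against GENCODE M21. Named members are, per comparison and class, the 2 highest and 2 lowest called, with the isoforms, subunit c and complex II; others are marked. The members, lists and rules were chosen with earlier results of these data known. The fit was tested on simulated data. The values of 1 member are not reported here.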

Additional observations from a re-analysis of the deposited data

Results flagged for a closer look

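The Daxx-null minus wild-type difference of 15 members differed between cultures by a test of the difference itself (limma interaction, adjusted p under 0.05). Between 2i and serum, the log2 difference was higher in 2i for Cox6a2 (1.55), Cox6b2 (1.45), Atp5s (1.10), Cox7a2l (0.99), Ndufa3 (0.75), Ndufv2 (0.59), Ndufaf7 (0.56), Ndufs4 (0.44) and Ndufb11 (0.44). It was lower in 2i for Ndufv1 (-0.81), Atp5g3 (-0.69), Ndufaf5 (-0.59), Ndufaf4 (-0.46) and Sdha (-0.32). Between RA and serum it was higher in RA for Ndufaf6 (0.73). Atp5s was higher in Daxx-null 2i cells (75.1, 46.5 and 68.7 FPKM, against 44.9, 48.2 and 48.0 FPKM in wild-type 2i cells) and lower in Daxx-null serum cells (18.4, 20.6 and 23.2 FPKM, against 34.6, 35.7 and 31.2 FPKM in wild-type serum cells). The 2i values overlapped between genotypes and the serum values did not. Sdha had 477, 392.3 and 471 FPKM in Daxx-null and 464, 471 and 496 FPKM in wild-type 2i cells, against 670, 620 and 623 FPKM in Daxx-null and 544, 566 and 529 FPKM in wild-type serum cells. Of the 14 calls between 2i and serum, 2 were kept under every alternative (Cox6b2 and Cox7a2l), and the call for Ndufaf6 was kept too. Without the 2 libraries of 2i that stood apart, 8 of the 14 calls were kept, and those for Ndufv1 (-0.49, adjusted p = 0.0645), Atp5g3 (-0.46, adjusted p = 0.0807), Ndufaf5 (-0.56, adjusted p = 0.0765), Sdha (-0.20, adjusted p = 0.145), Ndufv2 (0.47, adjusted p = 0.0601) and Ndufaf7 (0.42, adjusted p = 0.0595) were lost.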

How the results depend on the processing

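Lower members in RA against serum in wild-type cells numbered 51 to 61 when a replicate was left out, and higher members 1 to 2 (1 with chromosome medians subtracted). In 2i against serum in wild-type cells the leave-one-out counts were 7 to 12 higher and 6 to 11 lower. For Daxx-null against wild type in 2i they were 7 to 16 higher and 3 to 28 lower; median-ratio scaling gave 8 and 20, chromosome medians subtracted 5 and 23, only the groups compared 5 and 1, and the 2 libraries left out together (added after seeing the data) 16 and 4. In serum they were 3 to 4 higher and 3 to 7 lower; quantile normalization and the authors' normalized table gave 3 lower, median-ratio scaling and chromosome medians subtracted 4 lower, only the groups compared 8 higher and 16 lower, and the 2 libraries left out 11 lower. In RA no leave-one-out fit called a member; only the groups compared gave 1 lower, and the 2 libraries left out 2 higher. For the Daxx effect in 2i minus serum, leave-one-out gave 6 to 11 higher and 1 to 17 lower; quantile normalization and the authors' table gave 4 higher, median-ratio scaling and chromosome medians subtracted each 3 higher and 18 lower, no filter and only the groups compared 3 lower, and the 2 libraries left out 1 lower. For RA minus serum, leave-one-out kept 1 higher and 0 lower, and both only the groups compared and the 2 libraries left out gave 5 higher and 2 lower. Ndufb3 in Daxx-null against wild type in 2i turned to -0.11 with chromosome medians subtracted, which follows from the chromosome 1 median. The cause of the other moves was not tested. The replicate block left the Daxx counts at 13 and 9 in 2i and 4 and 7 in serum and gave 10 and 4 for the 2i interaction. Same-numbered libraries had correlations from -0.162 to 0.326 in that interaction, and other pairs from -0.266 to 0.191. These values do not settle whether the numbers pair those samples. Over single members, 3117 recomputed values stayed on their side of the threshold, 235 fell short of it, 77 newly passed, 161 moved and 1 reversed. Genes under a few FPKM, and members with near-identical copies, are least certain.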
